A study of Homo sapiens with 6 samples.

Results

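Transcripts of 9 genes that build or protect chromosome ends were followed in TPC1 cells, an established human papillary thyroid cancer line. The genes were taken by symbol from the deposited table of read counts: TERT and DKC1, which belong to telomerase, TERF1, TERF2, TERF2IP, POT1, ACD and TINF2, which encode the shelterin proteins, and the helicase gene RTEL1. All 9 were among the 21173 genes of the table, and all 9 had enough reads to be tested, together with 14431 genes in all. The study holds 6 RNA-seq libraries of total RNA, 3 of TPC1 cells with a vector (genotype WT) and 3 of TPC1 cells with TFCP2L1 overexpression. TFCP2L1 is a transcription factor of the CP2 family. The sources used here do not give how the cells were made to express it or whether they were a single clone. Nothing in the labels ties the replicates to separate cultures, and the p-values therefore measure only the spread between these libraries, which may be technical.

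Telomeres are arrays of a short repeat that end each chromosome and shorten as cells divide. Telomerase, a reverse transcriptase that carries its own RNA template, adds the repeats back. Its catalytic subunit TERT is off in most somatic cells and is regained in many carcinomas, while its other parts are widely expressed. Shelterin coats the repeats, hides the end from DNA damage signalling and controls the access of telomerase.

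Library totals ran from 37928516 to 38987434 reads. The overexpressed gene was read first as a check of the labels: 1 TFCP2L1 read was found over all vector libraries, and TFCP2L1 cells had 12333 to 13885 per library. Of the thyroid epithelial markers PAX8, FOXE1, TG, KRT8 and KRT18, 0 of 5 were called, beside 11.7% of all tested genes in either direction. Their log2 fold changes ran from -0.32 (FOXE1) to -0.04 (KRT8), with unadjusted edgeR p-values of 0.0315 for FOXE1 and 0.0351 for PAX8. Their summed level was 739 to 757 CPM in vector and 649 to 728 CPM in TFCP2L1 cells (CPM, reads scaled to a common library size). All marker sums were scaled by library totals only, while levels of single tested genes also took in TMM factors. Of the listed markers, 3 thyroid, 1 fibroblast, 1 endothelial and 2 leukocyte markers were not analysed here. TG, the thyroglobulin gene, was low, at 1.10 ± 0.361 and 1.03 ± 0.182 CPM (SD, n = 3). The leukocyte markers PTPRC and CD14 summed to at most 0.606 CPM and the endothelial markers PECAM1 and VWF to at most 1.18 CPM in any library. Fibroblast markers (COL1A1, COL1A2, LUM, PDGFRA) summed to 6.08 to 6.80 CPM in vector and 4.03 to 5.30 CPM in TFCP2L1 cells.

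Of the 9 genes only TERT passed the test. It rose about 2.9-fold in TFCP2L1 cells, from a low level, whereas none of the 6 shelterin genes, nor DKC1 nor RTEL1, was called. A gene was called when its Benjamini-Hochberg adjusted p over all tested genes, from edgeR's quasi-likelihood test, was under 0.05. By this rule 1 of 9 genes was called higher and 0 lower, where 4.68% of all tested genes were called higher and 7.04% lower. Taken in either direction, 1 of 9 stands beside 11.7% of all tested genes, so the count of called genes was near the background. At an unadjusted p under 0.05, DKC1 would join TERT and 0 genes were lower. DESeq2 called the same gene, TERT, and 0 others of the 9. The median log2 fold change of the 9 was 0.10, against 0.00 over all tested genes.

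TERT (ENSG00000164362.19; GRCh38 chromosome 5, 1253147 to 1295069, minus strand) encodes the catalytic subunit, the part of telomerase that copies the RNA template into DNA. It had 57, 36 and 77 reads in vector replicates 1 to 3 and 176, 181 and 152 reads in TFCP2L1 replicates 1 to 3. The lowest TFCP2L1 library thus lay well above the highest vector library, and the groups did not overlap. After scaling to library size by TMM, the levels were 1.51, 0.956 and 2.03 CPM in vector cells and 4.51, 4.62 and 3.97 CPM in TFCP2L1 cells. Their means were 1.50 ± 0.537 and 4.36 ± 0.349 CPM (SD, n = 3). The log2 fold change was 1.54 ± 0.25 (SE), with a 95% interval of 1.02 to 2.06 and an edgeR adjusted p of 0.000554. An exact two-sided permutation test of the CPM values gave p = 0.1, and no smaller value is possible with 3 libraries on each side.

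The ratio of summed TERT reads, 509 against 170 and corrected for library totals, came to 2.96. The exact 95% interval, for counting error only, ran from 2.49 to 3.55. Spread between vector libraries was wider than counting alone would give, with a coefficient of variation of 35.8% where the reads allow 13.2%. In TFCP2L1 cells it was 7.99%, beside 7.70% from counting. Vector replicate 2 was the lowest and vector replicate 3 the highest of the vector libraries, 2.12-fold apart. Without either one the log2 fold change was 1.30 (without vector replicate 2) or 1.82 (without vector replicate 3), and TERT was called in both cases. On the scale of log2(FPKM + 1), where FPKM scales reads to gene length and library total, the change shrank to 0.62, since the added 1 is larger than the vector level itself; limma's adjusted p was 0.00482.

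By size of rise, TERT stood at place 60 of 14431 tested genes, and 45 of the 676 genes called higher rose at least as much. Its mean level was low, with 22.1% of tested genes at or below it. No exon base of TERT is shared with another annotated gene in GENCODE v29. Its nearest tested neighbours on chromosome 5 were not called. CLPTM1L, 22.7 kb away on the side of the TERT start, had a log2 fold change of 0.15 ± 0.10 (edgeR adjusted p = 0.351). SLC12A7, 141.1 kb away on the other side, was at -0.06 ± 0.09 (0.709). These 2 neighbours were looked up after the TERT value was seen.

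**Figure D1:**
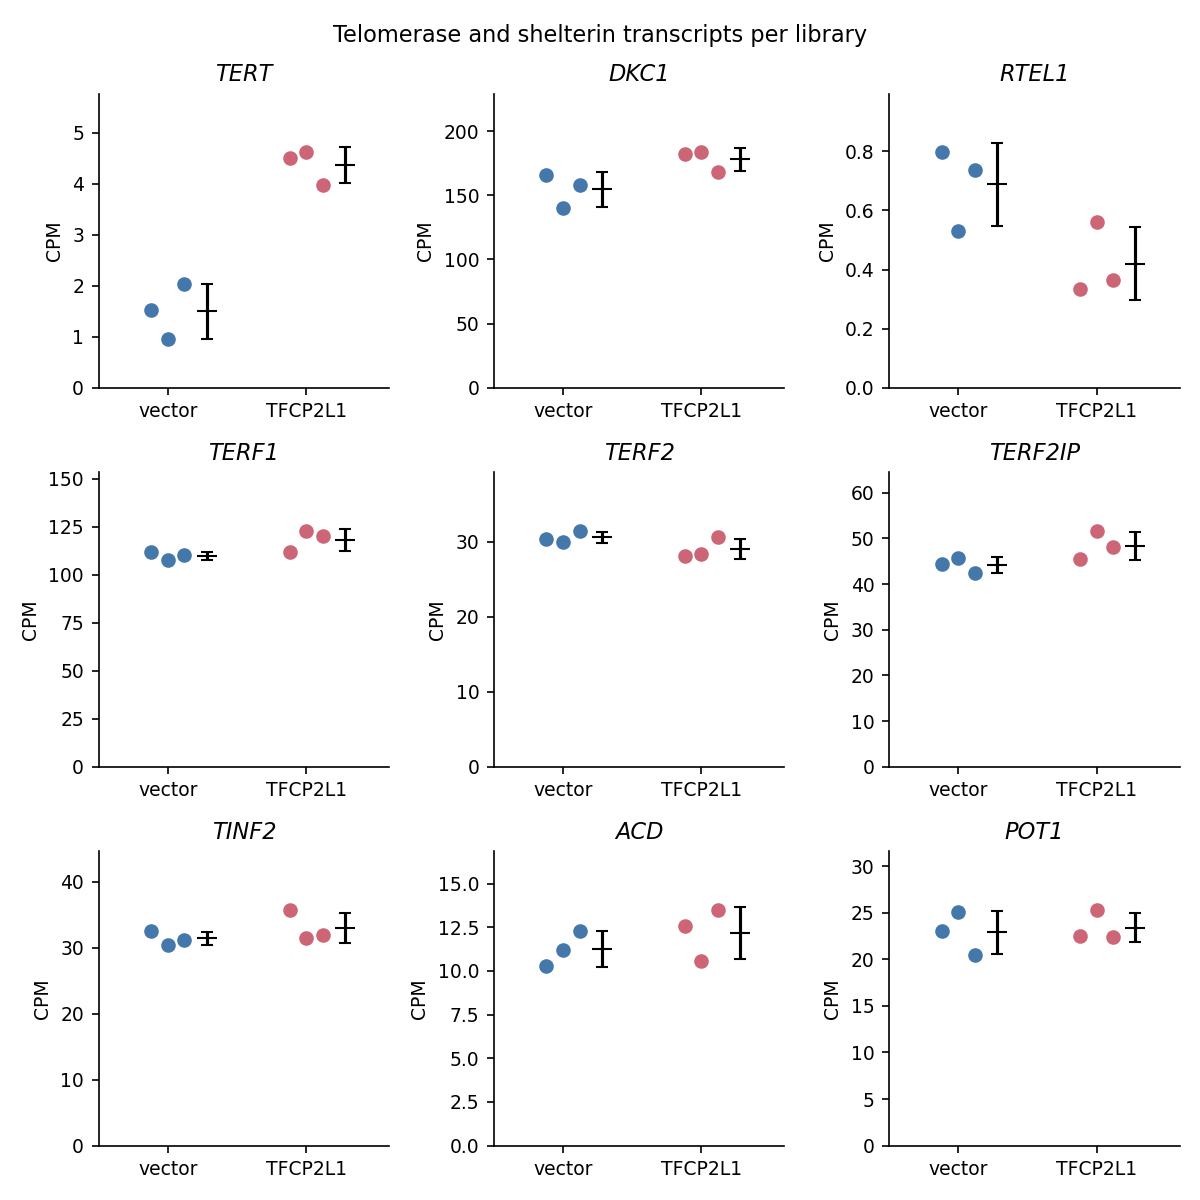
Level of each gene in CPM (after TMM scaling; each vertical axis starts at 0) in the 3 vector (blue) and 3 TFCP2L1 (red) libraries, with the mean and SD in black. TERT separates, at 0.956 to 2.03 against 3.97 to 4.62 CPM; DKC1 separates narrowly and the other 7 genes overlap between groups.

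The promoters of the 2 telomerase genes are shown because TERT is the gene that changed and DKC1 is its partner. Each is the 250 bases before the start site in RefSeq (GRCh38.p14), 5′ to 3′ on the strand of the gene. TERT is chr5:1295069-1295318, minus strand, and DKC1 is chrX:154762614-154762863, plus strand. In GENCODE v29 DKC1 starts at base 154762742, inside this window. By that annotation the later part of the DKC1 window lies within the gene. Capitals mark the E-box CACGTG, the letters read by MYC and MAX, and the GC box GGGCGG, the letters read by SP1, on either strand.
TERT: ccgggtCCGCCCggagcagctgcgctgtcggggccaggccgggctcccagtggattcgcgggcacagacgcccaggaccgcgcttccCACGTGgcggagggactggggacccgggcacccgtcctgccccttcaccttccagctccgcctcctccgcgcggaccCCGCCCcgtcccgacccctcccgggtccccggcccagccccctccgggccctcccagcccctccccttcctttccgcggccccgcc
DKC1: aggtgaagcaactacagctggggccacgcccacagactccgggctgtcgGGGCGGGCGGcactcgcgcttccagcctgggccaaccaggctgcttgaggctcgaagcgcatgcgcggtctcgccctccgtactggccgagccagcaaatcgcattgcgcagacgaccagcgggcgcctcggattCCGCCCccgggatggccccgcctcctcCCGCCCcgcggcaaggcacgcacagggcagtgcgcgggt

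Both windows are rich in G and C, at 78.8% for TERT and 72.0% for DKC1, where the median of 34788 distinct RefSeq windows of the same length was 58.0%. The TERT window holds 1 E-box, whose first base lies 163 bases before the start, and 2 GC boxes. In the DKC1 window there were 0 E-boxes and 4 GC boxes, of which a pair overlaps. An E-box was present in 6.31% of all windows and a GC box in 42.6%. Of the 7 genes with a window in the table, TERT was the only one with an E-box. The ETS core GGAA occurred 4 times in the TERT and 2 times in the DKC1 window, on either strand, and in 92.8% of all windows. For TFCP2L1, whose family binds pairs of short tandem sites, the letters CCAGNNNNNNCCAG were searched on both strands: they were in neither window, and in 3.28% of all windows. Among the 7 genes only RTEL1 had this form, with 2 matches in the first of its 2 windows. The looser CCNGNNNNNNCCNG, which takes in every match of the stricter form, had 6 matches in the TERT and 4 in the DKC1 window and was present in 34.8% of all windows. A match is a run of letters, not a site shown to be bound. The letters are those of the reference genome. The sequence of the TPC1 cells, which may differ from it, was not read here.

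DKC1 (ENSG00000130826.17; chromosome X, 154762742 to 154777689, plus strand) encodes dyskerin, the pseudouridine synthase that holds the telomerase RNA and also modifies ribosomal RNA. Its levels were 166, 139.8 and 158 CPM in vector and 182, 183 and 168 CPM in TFCP2L1 libraries. The groups did not overlap, though only narrowly: vector replicate 1 and TFCP2L1 replicate 3 were nearly level. Together with TERT this made 2 of 9 genes with all TFCP2L1 libraries above all vector libraries, beside 14.4% of all tested genes. The log2 fold change was 0.20 ± 0.08 (SE), or 15.1% higher, with a 95% interval of 2.28% to 29.6%. With an unadjusted p of 0.0226 and an edgeR adjusted p of 0.119, DKC1 was not called. Leaving out vector replicate 2, its lowest library, brought the log2 fold change to 0.14 and the adjusted p to 0.415. Small nucleolar RNA and microRNA genes inside DKC1 share 5.85% of its exon bases.

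Shelterin transcripts differed little between the groups. In either direction 0 of the 6 shelterin genes were called, beside 11.7% of all tested genes, a count near the background. Their log2 fold changes ran from -0.08 to 0.13 with a median of 0.09, 5 positive and 1 negative, while the 5th to 95th percentile of all tested genes ran from -0.74 to 0.51. In each of the 6 genes the vector and TFCP2L1 libraries overlapped. Overlap was the usual outcome, since only 30.0% of all tested genes had none in either direction. A p that misses the threshold does not show equal levels, so the 95% interval of each change is given below.

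TERF1 (chromosome 8, 73008864 to 73048122, plus strand) encodes TRF1, which binds double-stranded repeats and limits telomere length. It was at 112, 108 and 110.2 CPM in vector and 112, 123 and 120.3 CPM in TFCP2L1 libraries. TFCP2L1 replicate 1 lay at the level of the vector libraries and the other two lay above. The change was 7.53% (95% interval -3.44% to 19.7%; edgeR adjusted p = 0.409).

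TERF2 (chromosome 16, 69355561 to 69408571, minus strand) encodes TRF2, which folds and protects the end. Its levels were 30.4, 30.0 and 31.4 CPM against 28.1, 28.4 and 30.6 CPM, the only shelterin gene with a negative value. The change was -5.15% (-16.9% to 8.26%; edgeR adjusted p = 0.649). TERF2IP (chromosome 16, 75647786 to 75761872, plus strand) encodes RAP1, the partner of TRF2. It was at 44.5, 45.6 and 42.3 CPM in vector and 45.5, 51.5 and 48.1 CPM in TFCP2L1 libraries. Here the lowest TFCP2L1 library fell just under the highest vector library. The change was 9.55% (-3.27% to 24.1%; edgeR adjusted p = 0.361), and the opposite-strand gene KARS covers 5.21% of the TERF2IP exon bases.

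TINF2 (chromosome 14, 24239643 to 24242674, minus strand) encodes TIN2, the hub that joins TRF1, TRF2 and TPP1. Its levels were 32.5, 30.5 and 31.2 CPM in vector and 35.7, 31.4 and 31.9 CPM in TFCP2L1 libraries. TFCP2L1 replicate 1 was high and the other two lay among the vector libraries, and the change was 5.08% (-8.16% to 20.2%; edgeR adjusted p = 0.681). ACD (chromosome 16, 67657512 to 67660815, minus strand) encodes TPP1, which recruits telomerase to the end. It ran from 10.3 to 12.3 CPM in vector and from 10.6 to 13.5 CPM in TFCP2L1 libraries, a change of 8.29% (-10.8% to 31.4%; edgeR adjusted p = 0.638). POT1 (chromosome 7, 124822386 to 124929983, minus strand) encodes the protein that binds the single-stranded overhang and pairs with TPP1. It was at 23.1, 25.0 and 20.5 CPM against 22.5, 25.3 and 22.4 CPM, and the ranges overlapped, with vector replicate 3 the lowest library. The change was 2.34% (-12.5% to 19.7%; edgeR adjusted p = 0.888). Among the 6 intervals, that of ACD reached the farthest up, and a rise as large as that of TERT lay outside every one.

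RTEL1 (chromosome 20, 63657810 to 63696253, plus strand), a helicase that unwinds telomere loops and G-rich structures, had few reads. There were 30, 20 and 28 in vector and 13, 22 and 14 in TFCP2L1 libraries. TFCP2L1 replicate 2 lay within the vector range and the other two below it. In CPM the means were 0.689 ± 0.140 and 0.420 ± 0.123 (SD, n = 3). The log2 fold change of -0.71 had a 95% interval of -1.65 to 0.23 and an edgeR adjusted p of 0.346, so neither a fall of more than 2-fold nor a small rise could be told from no change at this depth. In GENCODE v29 the readthrough gene RTEL1-TNFRSF6B shares 70.2% of the RTEL1 exon bases on the same strand. Reads that fall on both genes may be left out or split by a counter. The sources used here do not say how they were treated. The RTEL1 level is therefore uncertain.

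**Figure D2:**
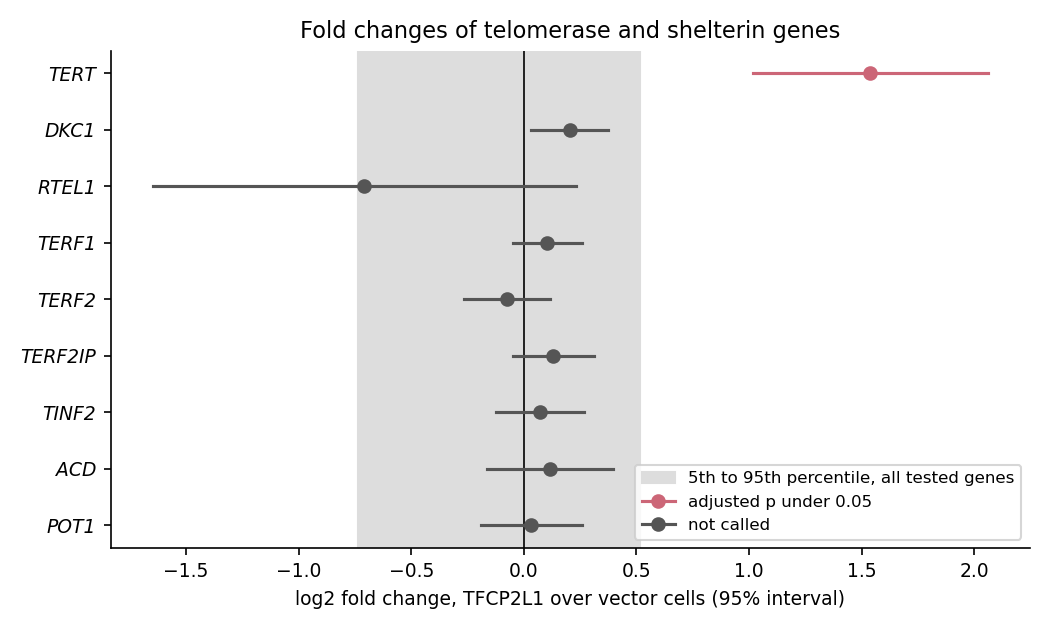
Log2 fold change of each gene, TFCP2L1 over vector cells, with its 95% interval from the edgeR fit; the grey band runs from the 5th to the 95th percentile of all 14431 tested genes (-0.74 to 0.51). TERT lies above the band with its whole interval, and the 6 shelterin genes sit between -0.08 and 0.13.

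Levels of different genes were compared in FPKM, which is per gene length. In vector cells DKC1 was highest at 51.7 ± 4.70 FPKM (SD, n = 3), followed by TERF1 at 24.4 ± 0.575, TERF2IP at 20.5 ± 0.693, TINF2 at 14.1 ± 0.520 and TERF2 at 10.1 ± 0.278 FPKM. POT1 at 5.77 ± 0.549 and ACD at 5.41 ± 0.495 FPKM came next, and the ranges of this pair overlapped. TERT, at 0.368 ± 0.133 FPKM, was 14.7-fold below ACD, and RTEL1 was lowest at 0.131 ± 0.0271 FPKM. No other neighbours in this order overlapped over the 3 libraries. The order was the same in TFCP2L1 cells, where POT1 at 6.02 ± 0.398 and ACD at 5.97 ± 0.728 FPKM again overlapped. TERT was then at 1.09 ± 0.0917 FPKM, 5.47-fold below ACD.

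Set against its partner in each library, DKC1 was 149.6, 199.7 and 106 times as high as TERT per length in vector cells. In TFCP2L1 cells the ratio was 55.2, 54.3 and 57.8. The vector libraries differed widely in this ratio and the TFCP2L1 libraries were close to each other, without overlap between the groups. This ratio mostly restates the TERT values and is no separate result. DKC1 was 15.1% higher, and its coefficient of variation in vector cells was 8.66%, beside 35.8% for TERT. TERF1 was 2.42 ± 0.0583 times as high as TERF2, the other protein that binds double-stranded repeats, in vector cells and 2.74 ± 0.143 times in TFCP2L1 cells. POT1 over ACD, whose products form a dimer, was 1.08 ± 0.175 and 1.03 ± 0.203, which differed by less than the spread between replicates.

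**Figure D3:**
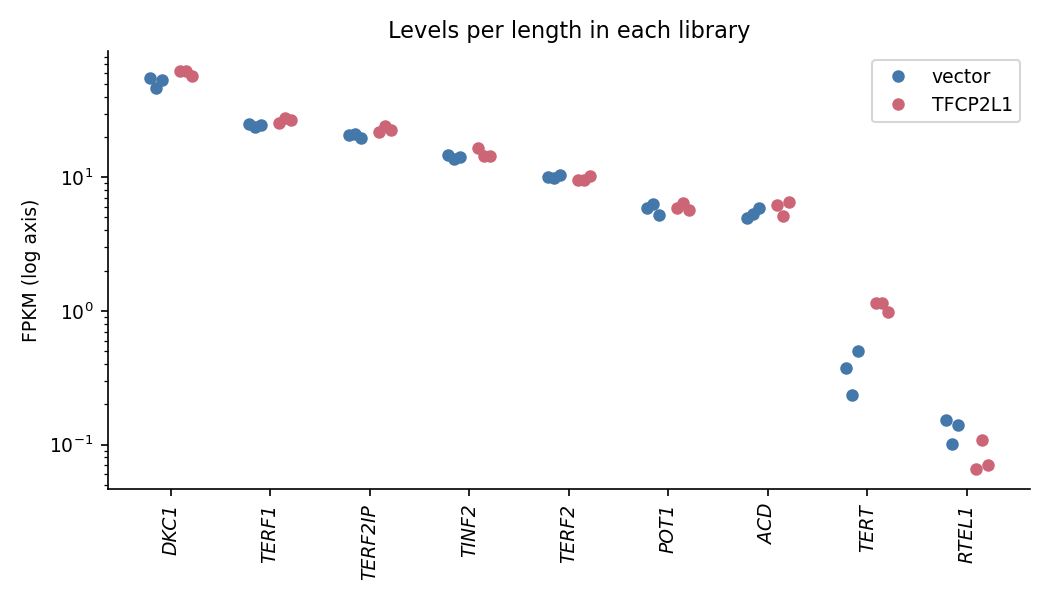
Deposited FPKM of each gene in the 3 vector (blue) and 3 TFCP2L1 (red) libraries on a log axis, ordered by the vector mean. TERT moves from 0.233 to 0.499 up to 0.985 to 1.15 FPKM, and the order of the 9 genes is the same in both groups.

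Other genes of telomere maintenance were read from 5 lists. Among 13 tested genes of telomerase assembly 0 were called, beside 11.7% of all tested genes in either direction. A positive log2 fold change was found in 12 of 13, where 50.5% of all tested genes had one. Genes read in the same 6 libraries are not independent, so this count of signs is only a description. The median of the 13 was 0.18. In the other lists, described below, positive values were 14 of 17 for CST and end processing and 9 of 12 for shelterin regulators. They were 7 of 13 for recombination and chromatin and 7 of 12 for TERT transcription factors. NHP2, which binds the telomerase RNA beside dyskerin, was just outside the threshold, with 65.7 ± 5.98 CPM in vector and 81.0 ± 8.80 CPM in TFCP2L1 cells (log2 fold change 0.30 ± 0.10 (SE), edgeR adjusted p = 0.0505). It was called under 7 of 18 alternative settings, among them scaling by DESeq2 size factors (0.0468). The list's count of genes called higher was 1 under 7 alternatives and 2 without TFCP2L1 replicate 2. WRAP53, which brings the particle to Cajal bodies, was at 18.8 ± 1.19 and 22.7 ± 3.52 CPM (edgeR adjusted p = 0.161, and 0.042 without TFCP2L1 replicate 2). TERC, the telomerase RNA, was not analysed here.

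In the list of the CST complex and of enzymes that process or copy chromosome ends, 2 of 17 tested genes rose and 0 fell, beside 4.68% of all tested genes higher and 7.04% lower (11.7% in either direction), and the median log2 fold change was 0.19. BLM, a helicase that resolves DNA structures at stalled forks, was at 18.3, 19.5 and 17.9 CPM in vector and 22.9, 27.2 and 25.7 CPM in TFCP2L1 libraries, without overlap. It rose by 0.44 ± 0.10 (SE) on the log2 scale (edgeR adjusted p = 0.00991). Leaving out vector replicate 1 (0.0515) or 3 (0.0619) ended this call. PRIM1, the catalytic subunit of the primase that works with CST, rose from 15.8 ± 1.26 to 20.5 ± 0.372 CPM (edgeR adjusted p = 0.0317). It no longer passed when any 1 vector library (0.12, 0.129 and 0.0536 for replicates 1 to 3), TFCP2L1 replicate 1 (0.0743) or TFCP2L1 replicate 2 (0.0578) was left out. The list's count was 0 without vector replicate 1 or 3, 1 without vector replicate 2 or TFCP2L1 replicate 1, and 5 without TFCP2L1 replicate 3, and it was 4 with scaling by library totals or with no filter on low counts. CST itself was represented by CTC1 (0.12 ± 0.09) and STN1 (0.15 ± 0.12), neither of them called; both were named after their values were seen.

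Of the 4 markers of cycling cells MKI67, PLK1, CCNB1 and PCNA, 3 were called higher and 0 lower, and PCNA was not called. Over all tested genes 4.68% were called higher and 7.04% lower. The summed level of the 4 markers was 981 to 1029 CPM in vector and 1329.9 to 1459 CPM in TFCP2L1 cells. MKI67 was the largest part of it, at 569 ± 42.9 and 836 ± 70.2 CPM after TMM scaling, which the sum did not have. MKI67 rose by 0.56 ± 0.08 (SE) on the log2 scale, and PCNA was at 124 ± 8.48 and 118 ± 8.58 CPM. Their part in the values of TERT, BLM and PRIM1 was not tested. In RNA of whole cultures, more cells that express a gene and more RNA per cell cannot be told apart.

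Among 12 tested regulators of shelterin and of telomerase access 1 rose and 0 fell, beside 4.68% of all tested genes called higher and 7.04% lower, with a median log2 fold change of 0.04. USP7, a deubiquitinase with many targets, rose from 141 ± 13.1 to 179 ± 23.5 CPM (edgeR adjusted p = 0.0325). It did not pass once vector replicate 1 (0.117) or 2 (0.126) or TFCP2L1 replicate 1 (0.0617) or 2 (0.102) was dropped, nor by limma on FPKM with a pseudocount of 1 (0.0897) or 0.1 (0.0841). PINX1, an inhibitor of telomerase, was at 13.3 ± 0.225 and 15.2 ± 0.839 CPM (edgeR adjusted p = 0.293). In the list of recombination-based maintenance and telomeric chromatin 0 of 13 genes were called, beside 11.7% of all tested genes, with a median of 0.05. NR2F2 had a log2 fold change of 0.40 ± 0.12 (edgeR adjusted p = 0.0517) and was called under 7 of 18 alternative settings, while POLD3 was at 0.26 ± 0.09 (0.0682, and 0.0432 with scaling by library totals or 0.0332 without TFCP2L1 replicate 3). This list's count of genes called higher was 1 under 7 alternatives and 2 with scaling by library totals. ATRX and DAXX, whose loss marks cells that maintain telomeres without telomerase, had log2 fold changes of -0.18 ± 0.08 and -0.07 ± 0.07 (SE), and neither was called. Their unadjusted edgeR p-values were 0.0452 and 0.365. In both genes all TFCP2L1 libraries lay below all vector libraries, as in 15.6% of all tested genes. In this list 3 genes lay lower without overlap and 3 higher. ATRX and DAXX were named after their values were seen.

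Of 12 tested transcription factors known to act on the TERT promoter, 0 rose and 1 fell, with a median log2 fold change of 0.06. Over all tested genes 4.68% were called higher and 7.04% lower. ETS1 fell by 0.25 on the log2 scale, from 338 ± 8.90 to 285 ± 21.4 CPM (edgeR adjusted p = 0.0432). This call was lost without any 1 of the vector replicates (0.109, 0.134 and 0.159), without TFCP2L1 replicate 1 (0.163) or 2 (0.0522), with scaling by library totals (0.0624) and by limma on FPKM with a pseudocount of 1 (0.0943) or 0.1 (0.0942). ETV5, another ETS factor, was at 101 ± 4.78 and 115 ± 3.42 CPM (edgeR adjusted p = 0.119). MYC, a factor that binds E-boxes, was at 228 ± 18.7 and 243 ± 31.8 CPM (edgeR adjusted p = 0.611; named after its value was seen).

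**Figure D4:**
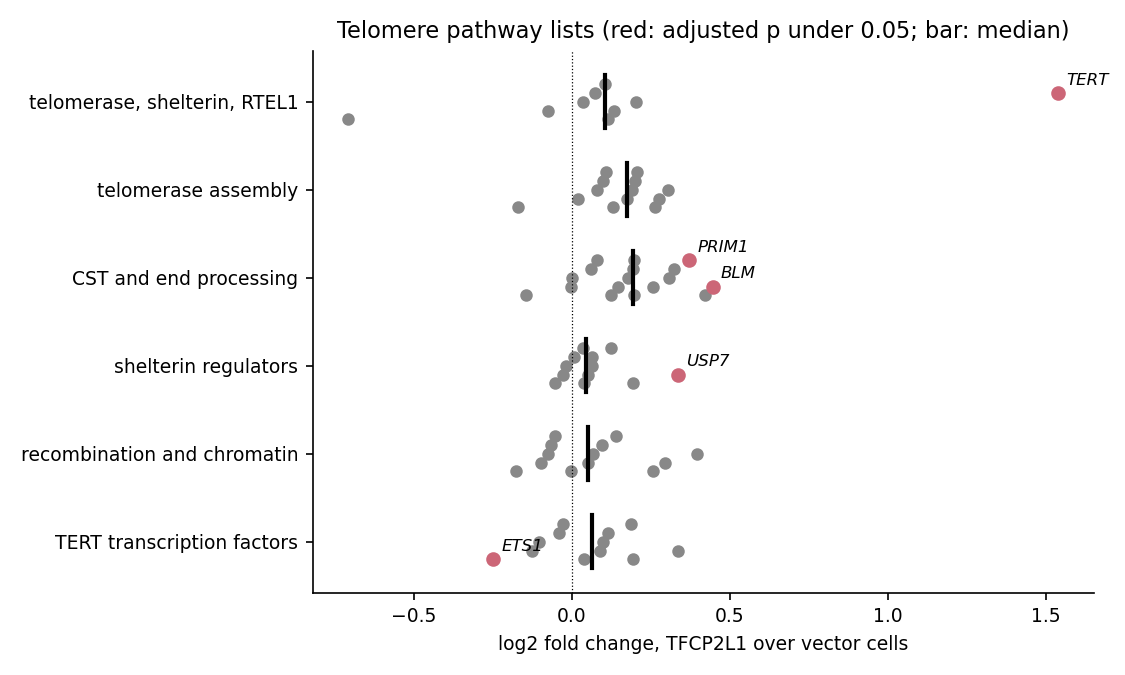
Log2 fold change, TFCP2L1 over vector cells, of each tested gene of the 6 lists (points; red and named where the edgeR adjusted p is under 0.05) with the list median (bar). TERT, at 1.54, lies far to the right of all other genes of the 6 lists, and the called BLM, PRIM1 and USP7 lie between 0.34 and 0.44.

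The genes whose pattern over the 6 libraries was nearest to that of TERT were found by the root mean square distance between log2 CPM values centred on each gene's own mean. They were the long non-coding RNA gene LOC107986465 (distance 0.15), BAMBI, a decoy receptor of TGF-beta signalling (0.22), and PARP9, an interferon-linked gene (0.23). LOC107986465 had 34, 23 and 61 reads in vector and 151, 138 and 92 reads in TFCP2L1 libraries. Like TERT it was lowest in vector replicate 2 and highest, within that group, in vector replicate 3. A choice by smallest distance favours such a shared order. BAMBI was at 4.05 ± 0.189 and 11.0 ± 1.75 CPM. These distances, taken with 0.5 added to each CPM value before the log, describe the 6 libraries only.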

How the data were processed

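RNA-seq of 6 TPC1 libraries was used. Per the submitters' processing notes, fastp, HISAT2 and HTSeq were used on GRCh38.p13; versions, annotation and strand setting are not given in the sources used here. The authors deposited raw read counts per gene, and FPKM values that are the same counts scaled to length and depth (the length implied for a gene agreed within 0.000115% over libraries), so FPKM is no independent measurement. Columns were matched to samples by name.

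Counts were tested with edgeR 4.0.16 (R 4.3.3): filterByExpr (14431 genes kept), TMM scaling, robust quasi-likelihood F-test with bias-adjusted deviances, two-sided, no block, 1 fit of all 6 libraries, Benjamini-Hochberg over all tested genes. The common dispersion was 0.0116. SE is the fold change over the root of F.

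The genes, lists and tests were chosen with earlier results of these data known. Named beyond the 9 genes are, per list, up to 3 called genes or, with fewer than 2 called, the 2 of smallest p; genes named outside this rule are said to be. Alternatives were other scalings and filters, DESeq2 1.42.0, limma 3.58.1, a replicate block, leaving out each library and, added after seeing the data, edgeR's earlier quasi-likelihood method. Positions and overlaps are from GENCODE v29.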

Additional observations from a re-analysis of the deposited data

How the results depend on the processing

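TERT was called higher under all 18 alternatives, with log2 fold changes of 0.62 to 1.82 and adjusted p-values of 1.56e-06 to 0.00936. The numbers of the 9 genes called, 1 higher and 0 lower, were the same in all 18. RTEL1 could not be tested under the filter of 1 CPM in 3 libraries. POT1 turned negative without vector replicate 3 (-0.038) and without TFCP2L1 replicate 2 (-0.024); the cause was not tested. Over all genes, leaving out 1 library gave 294 to 763 higher and 654 to 1108 lower calls, against 676 and 1016. The replicate block gave 331 higher and 665 lower, and TERT stayed called (adjusted p = 0.00776), as did BLM, while PRIM1 (0.0887), USP7 (0.122) and ETS1 (0.103) did not. Deviations of same-numbered libraries correlated at 0.14, -0.26 and -0.19. Pairs with different numbers ran from -0.19 (vector 1 with TFCP2L1 3) to 0.35 (vector 2 with TFCP2L1 3). Whether libraries shared a batch under the same or another numbering cannot be told from these values. The median of all genes moved by at most 0.03 (log2) under any setting. Few reads limit TERT in vector cells and RTEL1 in both groups.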
